A study of Mus musculus with 6 samples.

Results

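TGF-beta, BMP and activin signalling genes were followed in mRNA sequencing of mouse mammary carcinoma cells with and without induction of the microRNA miR-200c. The set holds 47 genes of the 43548 gene identifiers in the expression table, taken by gene symbol as the ligands, latent binding proteins, receptors, secreted antagonists, Smads, Smad regulators and feedback or target genes of these pathways. They were chosen by role, and their rule uses no measured value, but earlier results of these data were known when they were chosen. All 47 were found, each as 1 row. Levels are in FPKM, reads scaled by transcript length and by library size, so they can be compared between genes of different length.

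The cells are Met-1, a line from a late-stage tumor of an MMTV-PyMT mouse (polyoma middle T antigen driven in the mammary epithelium) of the FVB/NJ strain. They carry TripZ-200c, a lentiviral vector with a red fluorescent tag that makes the miR-200c precursor when doxycycline (Dox) is given, and the line is 1 clone sorted for no leak and for intermediate induction. The 3 MinusDox libraries come from cells given vehicle and the 3 PlusDox libraries from cells of the same clone given Dox at 1 µg/mL. Both were treated for 48 h by the labels, in medium with fetal bovine serum. The methods of the paper also give 48 h, but a figure legend refers the sequenced samples to a panel with a longer treatment. Empty-vector cells with Dox were not analysed here, so the effect of Dox itself and that of miR-200c cannot be told apart, and with 1 clone the p-values measure the spread between these cultures. No mature microRNA was measured in these libraries.

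Ligands of the TGF-beta superfamily bind pairs of type I and type II serine/threonine kinase receptors, which phosphorylate receptor-activated Smads. Smad2 and Smad3 carry signals of TGF-beta and activin, and Smad1, Smad5 and Smad9 carry those of BMPs, each with the shared partner Smad4. Secreted antagonists such as noggin and follistatin hold ligands away from receptors, latent binding proteins store TGF-beta in the matrix, and inhibitory Smads and Smurf ligases close the loop. In mammary epithelium TGF-beta is a well-known inducer of epithelial-to-mesenchymal transition, the program that the ZEB factors drive and the miR-200 family restrains.

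MiR-200c recognises its targets mainly through its seed, bases 2 to 8 of the mature strand, given here in capitals because the search for matches below rests on it. The mature sequence (RefSeq, GRCm38.p6, minus strand of chr6:124718324-124718346) is shared in its seed by miR-200b-3p and miR-429-3p, 3 mature microRNAs in all.
mmu-miR-200c-3p: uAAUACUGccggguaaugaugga
mmu-miR-200b-3p: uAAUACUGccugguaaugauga
mmu-miR-429-3p: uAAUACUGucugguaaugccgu

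The complement of the seed, CAGTATT, was looked for on the sense strand of the longest annotated 3′ UTR of each gene (GENCODE vM21, GRCm38). The sites of the following members are shown with the match in capitals, each as 30 bases of 3′ UTR. Nog and Id2 are shown because they were the members with a match that fell with Dox, Acvr2a because its match is of the 8-base kind, in which an A follows the 7 bases, and Inhba because it had the most matches.
Nog, chr11:89301068-89301097, minus strand: acttattaaaaggtCAGTATTatacgtcaa
Id2, chr12:25094184-25094213, minus strand: ataccagaaggaccCAGTATTcggttactt
Acvr2a, chr2:48901327-48901356, plus strand: taccaacaaatagcCAGTATTatgttatat
Inhba, chr13:16028788-16028817, plus strand: ttgtgtgcaaaacaCAGTATTtttaagaag
Inhba, chr13:16029479-16029508, plus strand: aaatctatattcctCAGTATTttgtaaaat
Inhba, chr13:16031529-16031558, plus strand: gtacagttagtaggCAGTATTcagcaatgc

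The labels were checked on Zeb1 and Zeb2, the best-known miR-200c targets, and on Cdh1, the E-cadherin gene that ZEB1 represses. Zeb1 fell from 41.8 ± 0.682 to 21.2 ± 2.05 FPKM (SD, n = 3 per group), a log2 fold change of -0.98 (limma adjusted p = 3.62e-04). Zeb2 fell from 29.3 ± 1.43 to 8.29 ± 0.661 FPKM (log2 fold change -1.81, limma adjusted p = 4.48e-05), and Cdh1 rose from 0.0585 ± 0.0180 to 0.828 ± 0.361 FPKM (limma adjusted p = 0.0125 in a fit with no lower limit on FPKM). The Cdh1 call was kept in 2 of 6 fits that left out 1 library, with a limma adjusted p from 0.0238 to 0.0617. The 5 epithelial markers summed to between 91.6 and 97.0 FPKM without Dox and to between 369 and 406 FPKM with Dox, nearly all of it Krt18, with Krt19 listed at 0. Of the 5, 3 were called higher, Cdh1 among them in the fit with no lower limit. The 6 mesenchymal markers summed to between 3893 and 4105 FPKM without Dox and to between 3058 and 3231 FPKM with Dox, nearly all of it Vim, and 3 of the 6 were called lower, whereas Col1a2 was at 0.114 ± 0.114 and 0.478 ± 0.148 FPKM, higher in each PlusDox library and not called. Col3a1 was at or near 0, the leukocyte markers in the table summed to at most 0.289 FPKM with Cd3e listed at 0, and of 4 endothelial markers Cdh5 alone passed 1 FPKM, at 4.45 ± 0.220 without and 4.15 ± 0.210 FPKM with Dox. The part of these shifts in the results below was not tested. Relative depth, estimated from the steps of low FPKM values, ran from 0.917 to 1.49 times that of MinusDox replicate 1. Each estimate is the most common ratio among low genes. It was held by 86 of 1501 genes in PlusDox replicate 1 and by 235 of 1805 in PlusDox replicate 2. The total read count was not used here.

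Of the 47 members, 41 averaged 1 FPKM or more across all 6 cultures and were tested with limma on log2(FPKM + 0.1). With an adjusted p under 0.05, 11 of the 41 were called, 6 higher and 5 lower with Dox, which is 26.8% of those tested beside 15.0% of all 12879 genes tested. By direction, the share of all genes was 7.06% higher and 7.97% lower. The groups did not overlap for 21 of the 41 members (51.2%), beside 35.0% of all genes. The median log2 fold change was 0.00 over the members and 0.00 over all genes, and the median size was 0.15 and 0.13, so most changes were small. A call with a change of at least 1.5-fold was reached by 3 of the 41 tested members, Bmp2, Fst and Tgfbi, beside 3.51% of all genes tested, and 3 of 11 called members compare with 452 of the 1935 genes called. None of the 6 members under the limit was called in a fit with no lower limit, where 7.84% of 20513 genes were. Without PlusDox replicate 3 the number of called members was 4, the lowest when any 1 library was left out. It was 6 without MinusDox replicate 1 or PlusDox replicate 1, and 7 without MinusDox replicate 2. Calls over all genes fell in the same fits, from 1935 to 1048 without PlusDox replicate 3. They numbered 1359 without MinusDox replicate 1, 1235 without PlusDox replicate 1 and 1248 without MinusDox replicate 2. In bulk RNA, fewer cells of a kind and less RNA per cell cannot be told apart.

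**Figure D1:**
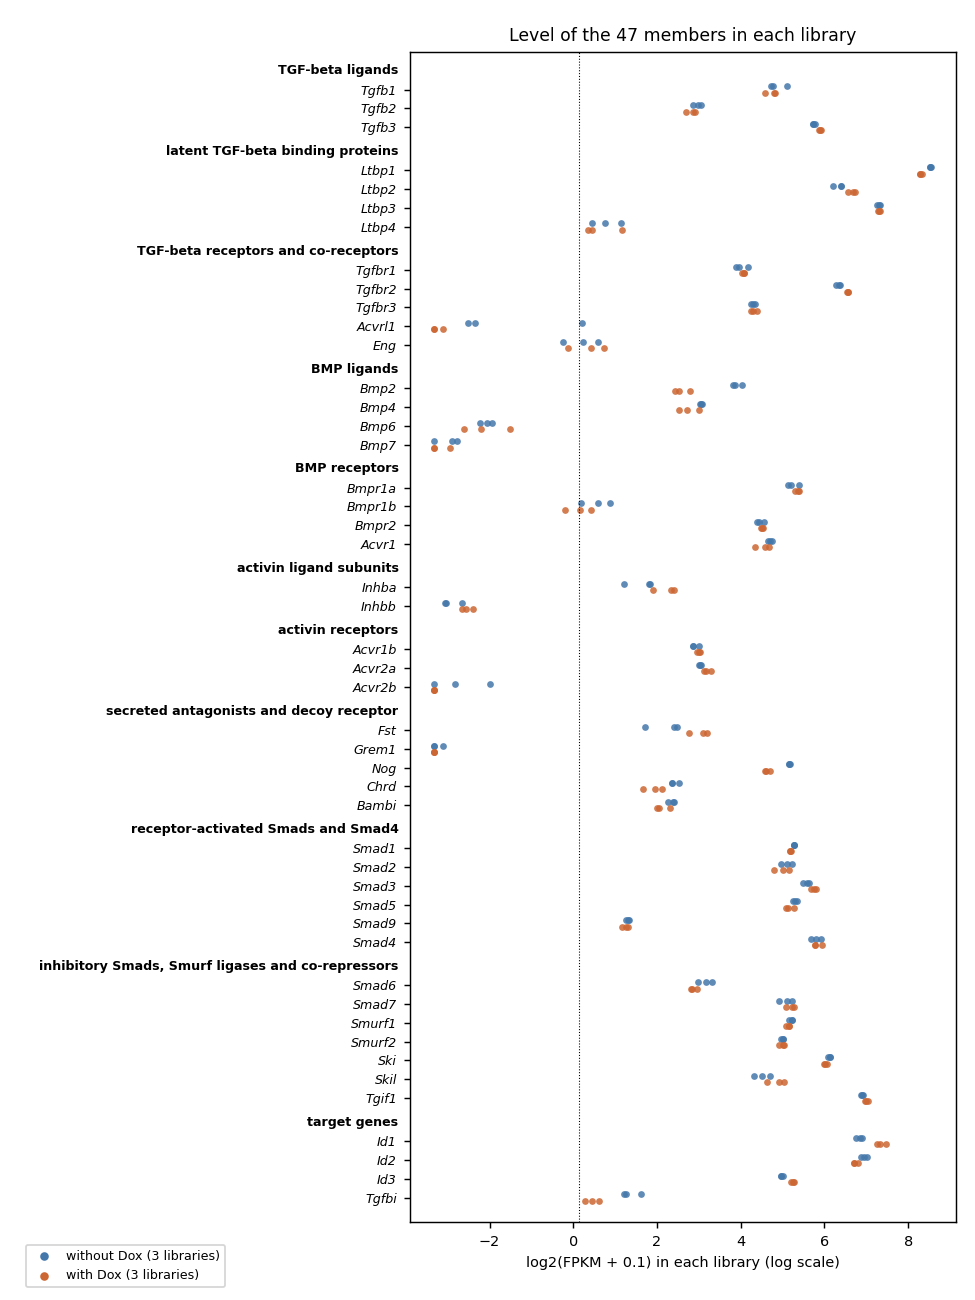
Level of each of the 47 members in the 3 MinusDox and 3 PlusDox libraries, as log2(FPKM + 0.1), grouped by role; each point is a library and the dotted line marks 1 FPKM. Ltbp1 was the most abundant member, at 369 FPKM without Dox, and Acvrl1, Bmp6, Bmp7, Inhbb, Acvr2b and Grem1 lie at the low end, under the limit for testing.

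**Figure D2:**
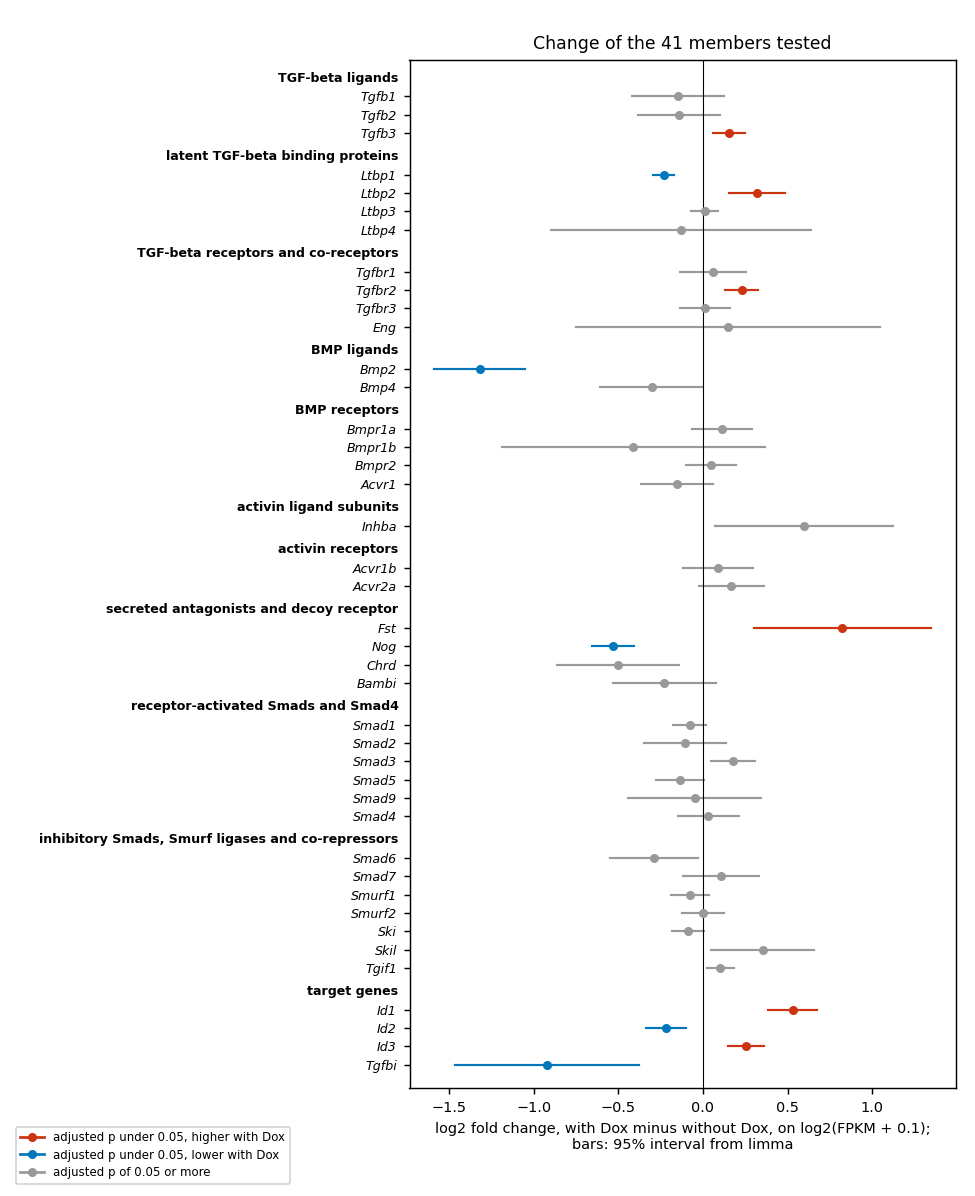
Log2 fold change (PlusDox minus MinusDox) of the 41 tested members with its 95% interval from limma, by role. Bmp2 lies farthest to the left at -1.32 and Fst farthest to the right at 0.82, and every Smad, Smurf and co-repressor is gray, meaning an adjusted p of 0.05 or more.

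Of the BMP ligands, Bmp2 was called, with the largest change in either direction among the 41 tested members. Bmp2 (chr2:133552159-133562885, plus strand), which signals to Smad1, Smad5 and Smad9, stood at 16.2, 13.9 and 14.4 FPKM in MinusDox replicates 1, 2 and 3. In PlusDox replicates 1, 2 and 3 it stood at 6.75, 5.31 and 5.68 FPKM. Every Dox-treated culture was thus below every vehicle culture, and the fall was 60.2% of the mean, with a log2 fold change of -1.32 ± 0.11 (SE, limma adjusted p = 6.02e-04). Bmp4, the other BMP ligand above the limit, stood at 8.19 ± 0.165 FPKM without and 6.67 ± 1.11 FPKM with Dox, and although its groups did not overlap it did not pass the test (limma adjusted p = 0.172). Bmp6 was at 0.0624 to 0.248 FPKM and Bmp7 at 0 to 0.0447 FPKM over the 6 libraries. The 4 BMP ligands summed to 23.2 ± 1.28 FPKM without Dox and 12.7 ± 1.87 FPKM with Dox, and the share of Bmp2 in that sum was 63.9% ± 1.63 and 46.5% ± 2.74 (SD, n = 3), with no overlap between groups.

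Of the 4 tested antagonists, counting the decoy receptor Bambi, Nog was called lower and Fst higher. Chrd and Bambi were lower in mean and not called. Over all genes tested, 7.97% were called lower and 7.06% higher. Nog encodes noggin, which binds BMP ligands and blocks their contact with receptors, and is a single-exon gene of 1695 bases (chr11:89300638-89302332, minus strand). It stood at 35.4, 35.3 and 36.02 FPKM in the MinusDox libraries and at 25.8, 23.6 and 24.3 FPKM in the PlusDox libraries. The values within each group lay close together and the groups were well apart, with a log2 fold change of -0.53 ± 0.052 (SE, limma adjusted p = 9.83e-04). Chrd, which encodes the BMP antagonist chordin, stood at 5.25 ± 0.357 and 3.71 ± 0.603 FPKM, with separate groups and a limma adjusted p of 0.0723. Because Bmp2 fell further than its antagonist, the ratio of Nog to Bmp2 went from 2.40 ± 0.189 to 4.19 ± 0.330, and the lowest PlusDox ratio, 3.82, was above the highest MinusDox ratio, 2.53.

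Fst encodes follistatin, which binds activins almost irreversibly, and it rose. Fst (chr13:114452290-114458951, minus strand) read 3.20, 5.44 and 5.16 FPKM in the vehicle cultures and 6.72, 8.48 and 9.03 FPKM in the Dox cultures. MinusDox replicate 1 was the lowest library and the groups did not overlap, with a log2 fold change of 0.82 ± 0.22 (SE, limma adjusted p = 0.0486). That call was lost when any 1 library was left out, where the limma adjusted p ran from 0.0582 to 0.149 and the log2 fold change from 0.59 to 0.96. Inhba, the activin beta A subunit that follistatin binds, stood at 3.02 ± 0.685 FPKM without and 4.58 ± 0.823 FPKM with Dox, with separate groups and no call (limma adjusted p = 0.128). The ratio of Fst to Inhba was 1.51 ± 0.0900 and 1.82 ± 0.514, with groups that overlapped. Bambi, a decoy receptor without a kinase domain, was at 5.01 ± 0.267 and 4.28 ± 0.497 FPKM with overlap, Grem1 was at 0 in all but 1 library, where it was at 0.0150 FPKM, and Inhbb ran from 0.0191 to 0.0901 FPKM.

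**Figure D3:**
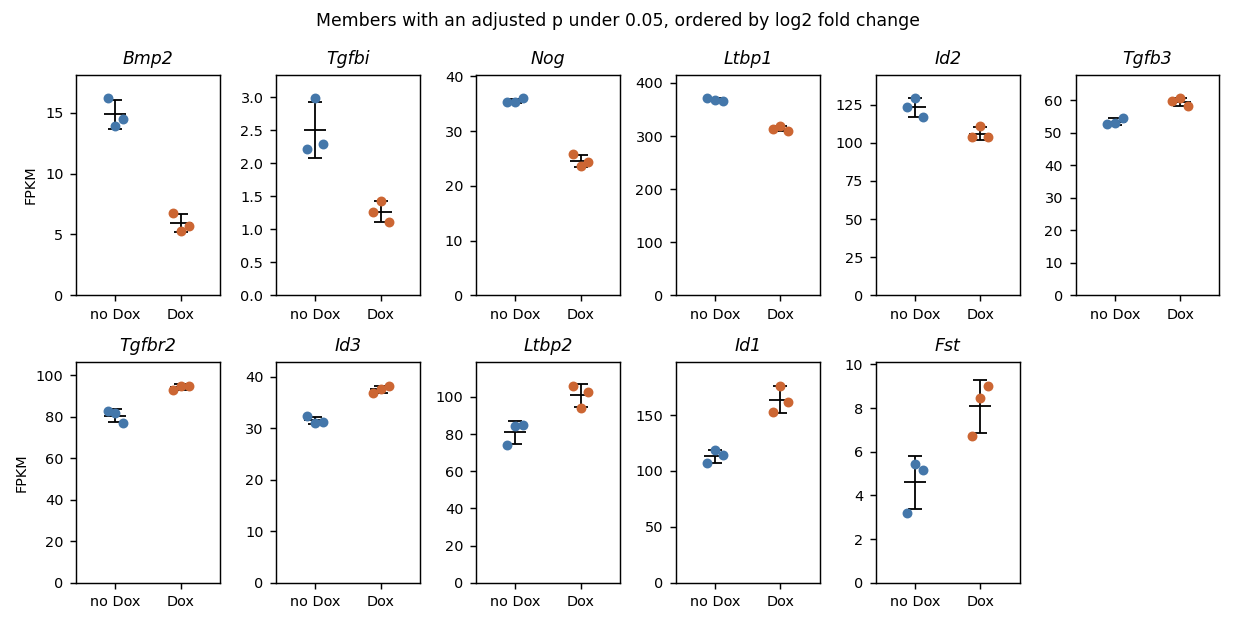
FPKM of the 11 called members in each library, with mean and SD of 3 libraries per group; each axis starts at 0 and the panels run from the most lowered, Bmp2, to the most raised, Fst. In all 11 the PlusDox points lie wholly above or wholly below the MinusDox points, and the gaps are wide for Bmp2 and Nog and narrow for Tgfb3. The 11 were picked by an adjusted p under 0.05 on these same values, which favors such separation.

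The latent TGF-beta binding proteins, which tether TGF-beta in the extracellular matrix, included the most abundant members and changed in composition. Ltbp1 (chr17:75005568-75392512, plus strand) had 371, 368 and 367 FPKM in the MinusDox libraries against 313, 319 and 310 FPKM in the PlusDox ones. Its replicates lay within a few percent of each other, and the fall of 14.9%, a log2 fold change of -0.23 ± 0.026, passed the test (SE, limma adjusted p = 0.00167). Ltbp2, whose product does not bind TGF-beta, unlike Ltbp1, had 73.9, 84.1 and 84.7 FPKM under vehicle and 106, 93.8 and 103 FPKM under Dox (chr12:84783212-84876532, minus strand). It rose in all 3 PlusDox libraries, with a log2 fold change of 0.32 ± 0.070 (SE, limma adjusted p = 0.0245). The Ltbp2 call was lost without MinusDox replicate 1 (limma adjusted p = 0.0506), PlusDox replicate 1 (0.0781) or PlusDox replicate 3 (0.0860). An antisense gene on the opposite strand, D030025P21Rik, overlaps 9.34% of the exon bases of Ltbp2, and no source used here says whether the counting used strand. Ltbp3 did not pass the test, and its 95% interval for the log2 fold change was -0.07 to 0.09. Ltbp4 was low, at 1.66 ± 0.432 and 1.52 ± 0.524 FPKM. The 4 genes summed to 608 ± 1.74 and 574 ± 3.47 FPKM, and Ltbp1 made up 60.6% ± 0.353 of the sum without Dox and 54.7% ± 0.598 with Dox, with no overlap.

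Of the TGF-beta ligands, Tgfb3 was the most abundant, followed by Tgfb1 and Tgfb2, and this order held in all 6 libraries. Tgfb3 (chr12:86056745-86079041, minus strand) read 52.6, 53.2 and 54.5 FPKM in the MinusDox and 59.7, 60.6 and 58.1 FPKM in the PlusDox libraries. The groups were separate but near each other, with a log2 fold change of 0.15 ± 0.040 (SE, limma adjusted p = 0.0420). Leaving out any 1 library ended this call, with a limma adjusted p from 0.0681 to 0.125. The antisense gene Gm48008 overlaps 7.60% of the Tgfb3 exon bases. Tgfb1 was at 29.4 ± 4.52 and 26.4 ± 2.27 FPKM and Tgfb2 at 7.69 ± 0.500 and 6.97 ± 0.574 FPKM, both with overlap, and the sum of the 3 ligands, 90.5 ± 4.70 and 92.8 ± 2.49 FPKM, overlapped too.

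Tgfbr2, the type II receptor that binds TGF-beta first and recruits Tgfbr1, rose. Vehicle cultures held 82.8, 81.9 and 77.02 FPKM of it and Dox cultures 92.8, 95.1 and 95.02 FPKM (chr9:116084293-116175360, minus strand). Each PlusDox library was above each MinusDox library, with a log2 fold change of 0.23 ± 0.041 (SE, limma adjusted p = 0.0119). Without PlusDox replicate 3 the limma adjusted p was 0.0509. Tgfbr1, the type I partner, was at 15.97 ± 1.63 and 16.6 ± 0.334 FPKM, and its 95% interval was -0.14 to 0.26 on the log2 scale. The co-receptor betaglycan (Tgfbr3) was at 19.5 ± 0.602 and 19.7 ± 1.06 FPKM, and endoglin (Eng), best known from endothelium, was near 1 FPKM in both groups. Acvrl1, a type I receptor of endothelium, reached 1.06 FPKM in MinusDox replicate 2 and at most 0.0961 FPKM in the other libraries. Its PlusDox values, 0, 0.0157 and 0 FPKM, were below all MinusDox values, and it was not called in a fit with no lower limit (limma adjusted p = 0.267), where its log2 fold change of -1.70 was -0.81 without MinusDox replicate 2.

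No BMP or activin receptor passed the test, 0 of 4 and 0 of 2 tested, beside 15.0% of all genes tested. The BMP type I receptor Bmpr1a stood at 37.7 ± 3.58 and 40.8 ± 1.62 FPKM, the BMP type II receptor Bmpr2 at 22.0 ± 1.36 and 22.7 ± 0.331 FPKM and Acvr1 at 25.8 ± 0.917 and 23.2 ± 2.69 FPKM, while Bmpr1b was near 1 FPKM. Their 95% intervals were -0.06 to 0.29 for Bmpr1a, -0.10 to 0.19 for Bmpr2 and -0.37 to 0.06 for Acvr1, on the log2 scale. Acvr2a, an activin type II receptor, was at 8.06 ± 0.133 without and 9.08 ± 0.513 FPKM with Dox, with separate groups and a limma adjusted p of 0.225. Acvr1b was at 7.40 ± 0.496 and 7.87 ± 0.156 FPKM with overlap, and Acvr2b was at most 0.153 FPKM.

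None of the 13 Smads, Smurf ligases and co-repressors passed the test, beside 15.0% of all genes tested. Smad1, at 38.5 ± 0.207 and 36.4 ± 0.437 FPKM (limma adjusted p = 0.257), was called lower by the unmoderated linear model (adjusted p = 0.0292). The receptor-activated Smad1, Smad2, Smad3 and Smad5 and the common partner Smad4 were all expressed between 27.8 and 61.3 FPKM, and Smad9 near 2 FPKM. Smad3 had the smallest adjusted p, with 47.3 ± 2.47 and 53.5 ± 2.11 FPKM, a log2 fold change of 0.18 and a limma adjusted p of 0.0752. The inhibitory Smad6, itself a BMP target, was at 8.85 ± 1.00 and 7.19 ± 0.446 FPKM with separate groups (limma adjusted p = 0.132), and the inhibitory Smad7, a TGF-beta target, at 33.96 ± 3.82 and 36.5 ± 2.69 FPKM with overlap. For Smurf2, a ubiquitin ligase that marks receptors and Smads for degradation, the 95% interval was narrow around 0, at -0.12 to 0.13 on the log2 scale. Tgif1, a co-repressor of Smad2 and Smad3, was the most abundant of the 13, at 119 ± 1.55 and 128 ± 2.80 FPKM (limma adjusted p = 0.0877). Skil, which encodes the co-repressor SnoN, was at 22.8 ± 2.96 and 29.2 ± 4.06 FPKM with overlap (limma adjusted p = 0.122), and Ski and Smurf1 were lower in each PlusDox library than in any MinusDox library without passing the test (limma adjusted p = 0.198 and 0.351).

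All 4 members listed as target genes passed the test, 2 in each direction, beside 7.06% higher and 7.97% lower of all genes tested. Smad6 and Smad7, also named as targets above, were listed with the inhibitory Smads and did not pass. Not every target gene outside the members passed either. The Id proteins are dominant-negative partners of basic helix-loop-helix factors and are direct transcriptional targets of BMP signalling. Id1 (chr2:152736251-152737410, plus strand) had 107, 118 and 114 FPKM under vehicle and 153, 176 and 162 FPKM under Dox. The lowest PlusDox library was well above the highest MinusDox library, with a log2 fold change of 0.53 ± 0.062 (SE, limma adjusted p = 0.00217).

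Id3 moved the same way by a smaller amount. The MinusDox libraries held 32.3, 31.01 and 31.3 FPKM and the PlusDox libraries 36.9, 37.6 and 38.3 FPKM (chr4:136143497-136145755, plus strand), a log2 fold change of 0.25 ± 0.045 (SE, limma adjusted p = 0.0118). The groups were separate, and without PlusDox replicate 3 the limma adjusted p was 0.0530. Id2 moved the other way, from 124, 129 and 117 FPKM to 103, 111 and 104 FPKM (chr12:25093799-25097140, minus strand). The highest PlusDox value for Id2 was below the lowest MinusDox value, with a log2 fold change of -0.22 ± 0.050 (SE, limma adjusted p = 0.0284). Id2 lost the call without MinusDox replicate 1 (limma adjusted p = 0.0761), MinusDox replicate 2 (0.0812), PlusDox replicate 1 (0.0871) or PlusDox replicate 3 (0.0979). Within the sum of the 3 Id genes, 268 ± 9.10 FPKM without and 307 ± 16.1 FPKM with Dox, the share of Id1 went from 42.2% ± 1.41 to 53.2% ± 1.09 and that of Id2 from 46.0% ± 1.25 to 34.5% ± 0.675. Id2 had the highest level of the 3 in every MinusDox library and Id1 in every PlusDox library, and the share of Id3 overlapped between groups.

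Tgfbi, which encodes a matrix protein named for its induction by TGF-beta, fell from a low level. Its values were 2.22, 2.99 and 2.29 FPKM under vehicle and 1.26, 1.43 and 1.11 FPKM under Dox (chr13:56609523-56639562, plus strand). All PlusDox values were below all MinusDox values, with a log2 fold change of -0.92 ± 0.23 (SE, limma adjusted p = 0.0383). Leaving out any 1 library ended the call, with a limma adjusted p from 0.0635 to 0.119.

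The seed match was present in the longest 3′ UTR of 10 of the 41 tested members (24.4%), beside 16.1% of the 10798 tested genes with an annotated 3′ UTR, and in that of Grem1 among the members under the limit. Long 3′ UTRs hold more matches by their length alone, and the median length was 3480 bases in members with a match and 1214 bases in those without. Of the 10 members with a match, 2 fell and 0 rose, and the median log2 fold change was -0.05. Of the 31 without a match, 3 fell and 6 rose. Over all tested genes, 17.3% of those with a match fell and 4.14% rose, beside 7.33% and 8.53% of those without.

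Nog and Id2, whose sites are printed above, were the 2 that fell. The match in Nog starts at base 239 of a 3′ UTR of 684 bases, is of the 8-base kind and is in the 1 annotated coding transcript. That in Id2 starts at base 385 of 785 and is in 2 of 3 coding transcripts. These are the shortest 3′ UTRs of the members with a match. Acvr2a, with an 8-base match, and Inhba, with 3 matches in 1 of its 2 coding transcripts, had log2 fold changes of 0.17 and 0.60 that did not pass the test (limma adjusted p = 0.225 and 0.128), so neither was shown to fall. Bmpr1b, Bmpr2, Smad2, Smad5, Smad7 and Smurf2 had 1 match each and were not called. Matches to all but the last seed base, followed by A, are not in these counts, and Bmpr2 had 3 further ones and Bmpr1a 1. Bmp2, Ltbp1 and Tgfbi fell and had no match in the annotated 3′ UTR, which says only that these letters are not there. Zeb1 and Zeb2 had 5 matches each.

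**Figure D4:**
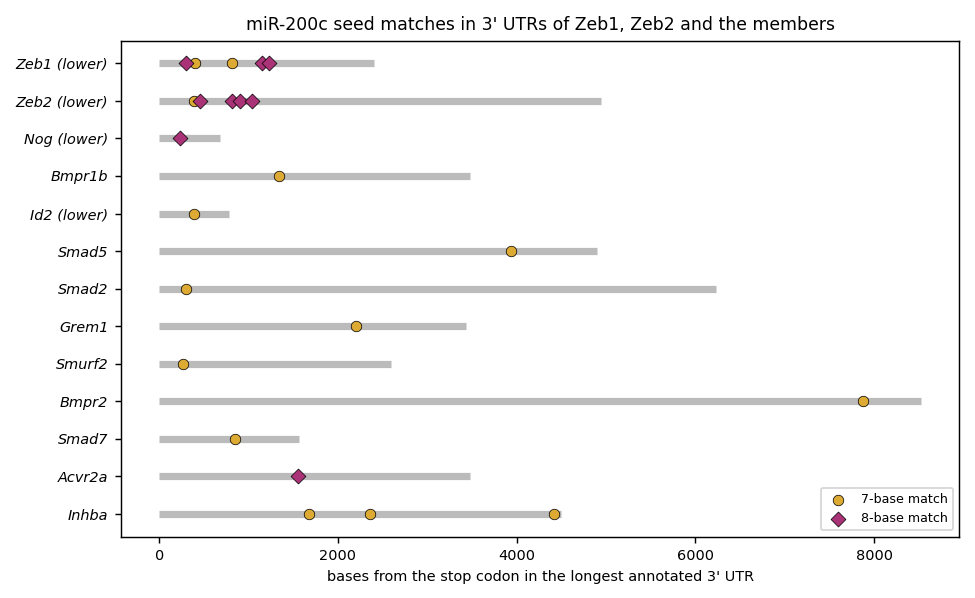
Position of miR-200c seed matches along the longest annotated 3′ UTR of Zeb1, Zeb2 and the 11 members with a match, in bases from the stop codon; gray bars are the 3′ UTRs, circles 7-base and diamonds 8-base matches. Zeb1 and Zeb2 carry 5 matches each, whereas 10 of the 11 members carry 1 and Inhba carries 3; genes called lower with Dox are marked.

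Promoters were available for 34 of the 47 members (RefSeq, GRCm38.p6, 250 bases before to 50 after the annotated start), and 2 motifs were looked for. The first was the E-box CACCTG, on either strand, which ZEB factors bind, and the second was GGCGCC, its own reverse complement, a GC-rich letter string found at Smad1 and Smad5 sites. The 2 motifs do not overlap in letters. CACCTG was in 6 of 34 members (17.6%) and in 22.6% of all genes with a promoter, and of the 6 called members with a promoter entry it was found in Ltbp2. GGCGCC was in 13 of 34 members (38.2%) and in 13.4% of all genes, and of the same 6 called members it was found in Id2 and Tgfbi. Bmp2, Nog, Id1, Fst and Tgfb3 were not searched. Base composition was not matched in these shares. The promoters of Ltbp2 and Id2 are shown, with the match in capitals, as the called members of highest level that hold each string.
Ltbp2, chr12:84876442-84876741, minus strand: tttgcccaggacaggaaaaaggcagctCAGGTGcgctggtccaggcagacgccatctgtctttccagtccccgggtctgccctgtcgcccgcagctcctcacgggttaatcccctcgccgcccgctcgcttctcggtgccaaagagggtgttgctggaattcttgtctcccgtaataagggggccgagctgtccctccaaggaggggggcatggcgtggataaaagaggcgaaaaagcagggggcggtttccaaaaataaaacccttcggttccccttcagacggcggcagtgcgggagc
Id2, chr12:25096043-25096342, minus strand: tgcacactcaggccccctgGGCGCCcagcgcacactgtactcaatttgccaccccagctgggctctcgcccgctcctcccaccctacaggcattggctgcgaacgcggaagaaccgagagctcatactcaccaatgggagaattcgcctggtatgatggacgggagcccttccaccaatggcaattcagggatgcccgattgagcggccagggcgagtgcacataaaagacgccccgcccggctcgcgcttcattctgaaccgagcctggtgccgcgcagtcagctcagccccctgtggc

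The matches begin at position -223 relative to the Ltbp2 start and at -231 relative to the Id2 start. A match is a description and does not show that a factor binds there.

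Other genes of the pathways, 81 in a list made by role with earlier results of these data known, were read in the same way. Of these, 20 were at 0 in all libraries, 25 were under the limit and 36 were tested, and 13 of the 36 were called (36.1%), 6 higher and 7 lower, beside 15.0% of all genes tested. Of 23 further ligands, 12 were listed at 0 in all libraries, as were 23035 of the 43548 genes in the table, and Gdf11 was the 1 tested. A listed 0 need not mean lack of expression, since all 37 mitochondrial genes are also listed at 0. Gdf11, an activin-like ligand, fell from 73.3 ± 3.93 to 52.8 ± 0.517 FPKM (log2 fold change -0.47, limma adjusted p = 0.00127). Both tested BMP co-receptors of the repulsive guidance family fell, Rgma by 0.35 and Rgmb by 0.40 on the log2 scale (limma adjusted p = 0.00734 and 0.00941).

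Thbs1, which encodes thrombospondin-1, an activator of latent TGF-beta, had the largest rise among the 36 tested. Its values were 239, 237 and 242 FPKM in the MinusDox and 424, 425 and 420 FPKM in the PlusDox libraries, a log2 fold change of 0.82 ± 0.025 (SE, limma adjusted p = 8.78e-06). The replicates of Thbs1 lay within a few percent of each other in both groups. Integrin chains that release TGF-beta from its latent form moved in both directions. Itgb8 rose by 0.52 (limma adjusted p = 0.0270) and its partner Itgav fell by 0.19 on the log2 scale (limma adjusted p = 0.0269). Itgb3, under the limit, was at 1.29 ± 0.0400 and 0.435 ± 0.0779 FPKM (limma adjusted p = 0.0314 in the fit with no lower limit), a call lost when any 1 library was left out (0.0512 to 0.0816).

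Twsg1, a modulator of chordin and BMP, rose by 0.24 (limma adjusted p = 0.00773). Of 14 tested intracellular regulators, 1 was called lower and 1 higher, beside 7.97% lower and 7.06% higher of all genes tested. Dab2, an endocytic adaptor of TGF-beta receptors, fell by 0.37 (limma adjusted p = 8.46e-04). Pmepa1, a TGF-beta target that restrains Smad signalling, rose by 0.25 (limma adjusted p = 0.0230). Of 9 tested target genes, 2 were called higher and 2 lower, beside the same shares of all genes. Ctgf and Junb rose, by 0.26 and 0.25 (limma adjusted p = 0.00204 and 0.0186). The cell cycle inhibitor gene Cdkn2b and the EMT factor gene Snai1 fell, by 0.32 and 0.28 (limma adjusted p = 0.00714 and 0.0301), all on the log2 scale. An antisense gene, Gm15270, overlaps 23.2% of the exon bases of Ctgf. Prdx2, also on the opposite strand, overlaps 7.52% of those of Junb. Other genes on the opposite strand overlap 5.90% for Itgav, 4.65% for Rgma, 3.4% for Thbs1 and 2.87% for Dab2. As said above, strand use in counting is not known. Calls of Itgav, Itgb8, Pmepa1 and Snai1 were each lost in 5 of 6 fits that left out 1 library and that of Junb in 3 of 6, with limma adjusted p up to 0.0849, 0.0988, 0.0796, 0.0965 and 0.0643.

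**Figure D5:**
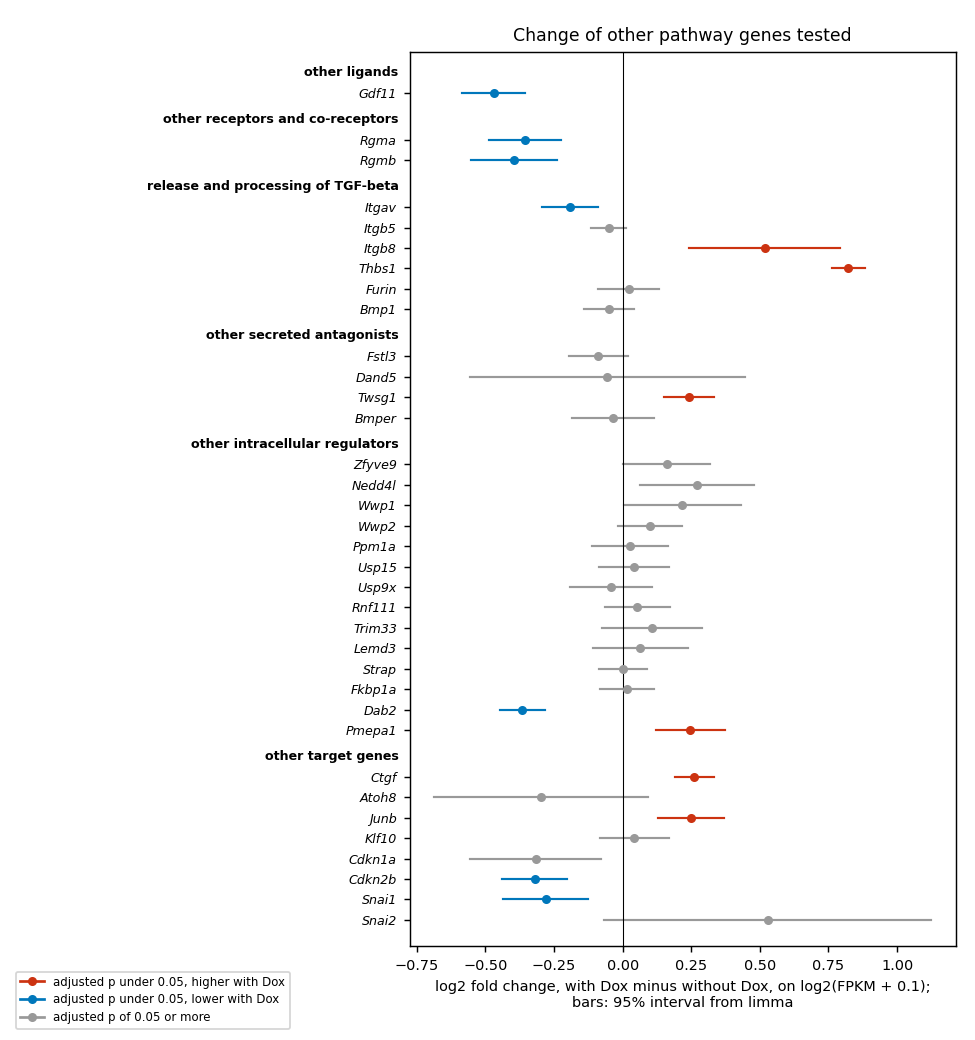
Log2 fold change (PlusDox minus MinusDox) with its 95% interval from limma for tested pathway genes outside the 47 members, by role; 1 of the 36 is not shown. Thbs1, at 0.82, is the farthest to the right, Gdf11, at -0.47, the farthest to the left, and most intracellular regulators are gray, meaning an adjusted p of 0.05 or more.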

How the data were processed

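Libraries from 6 cultures (TruSeq Stranded kit, 50-base single reads) were mapped with gSNAP by the authors, and the deposited FPKM values per gene were computed by the authors with Cufflinks; the methods name GRCm38.p6 with the FVB_NJ genome, and versions and strand use in counting are not given in the sources used here. The deposited p-value, q-value and signed fold change score columns hold the comparison made by the authors with ANOVA and were not used. Of 43611 rows, 63 with a repeated identifier were dropped, and 6 placeholder values in 4 genes were set to missing. Levels were tested as log2(FPKM + 0.1) with limma 3.58.1 (R 4.3.3; trend on, group only, Benjamini-Hochberg over the 12879 genes averaging 1 FPKM or more, threshold 0.05). Fold changes on this scale understate changes of low genes. Members called were given in full, the others by mean or range, and other pathway genes where called. A tested pathway gene is not reported here. Members and lists were chosen with earlier results of these data known. Alternatives were another pseudocount, limit, scaling, variance model, replicate block and 1 library left out. Same-numbered libraries correlated weakly (r = 0.0287, 0.0359 and -0.00759), and those with unlike numbers had r from -0.0511 to 0.0235. Overlapping and shared exon sequence was read from GENCODE vM21, and matched by BLAST 2.17.0 (50 bases or more, 95% identical).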

Additional observations from a re-analysis of the deposited data

How the results depend on the processing

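The called members numbered 11 in the reported fit, 7 without the variance trend and 3 with a change of at least 1.5-fold required, and 4 to 8 when 1 library was left out. Other pathway genes called numbered 13, 1 at 1.5-fold and 8 to 10 with 1 library left out. Over all genes there were 1935 calls, 1495 without the variance trend, 452 at 1.5-fold and 1048 to 1359 with 1 library left out. Leaving out a library also leaves fewer values to estimate the spread. Other pseudocounts, scalings and limits kept these counts within 1.5 times, and no alternative reversed a called change. Bmp2, Nog, Ltbp1 and Id1 were called under all 8 alternatives that used every library, the replicate block and all 6 omissions. Without a variance trend Tgfb3, Ltbp2, Id2 and Fst were not called. With an unmoderated linear model on log2(FPKM + 1), Tgfbi, Ltbp2, Id2 and Fst were not called and Smad1 was (adjusted p = 0.0292), and with no limit on low values Tgfbi, Ltbp2 and Fst were not called, the cause of which was not tested. With replicate number as a block, 8 members, 9 other pathway genes and 1337 genes were called. The labels give only a replicate number, and the sources used here do not say whether same-numbered libraries came from 1 experiment. Libraries of replicates 1 and 2 correlated best with their own number, and those of replicate 3 did not. Absolute read depth was not used here, so members under 1 FPKM have no counting interval.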
